A study of Mus musculus with 10 samples.

Results

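The 10 genes described here are Lcn2, Havcr1, Spp1, Vcam1, Clu, Krt8, Krt18, Sox9, Cdkn1a and Tgm2, which are used as markers of injured tubules and of tubules that fail to repair. They were listed by name, and all 10 were among the 13837 genes with deposited values. They were measured in whole kidneys of 3-month-old mice of 2 genotypes, with 1 library per mouse. Rragc+/+ mice (+/+, n = 5) carried only wild-type Rragc, and RragcS74N/+ mice (KI/+, n = 5) carried 1 knock-in allele of Rragc, the gene of the small GTPase RagC, beside 1 wild-type allele. The knock-in was made with Cas9 in embryos and is inherited, so that it is not confined to kidney cells. It exchanges serine for asparagine at residue 74 (S74N), which keeps RagC in its active state, and the edited allele also holds silent changes. The labels name no drug or injury for either genotype. Sex was not given in the labels, and the Y-linked transcript Ddx3y was read in all 10 kidneys, at 317 to 478 normalized counts.

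Injured tubule cells lose part of their differentiated program, change their cytoskeleton and secrete proteins that appear in urine and blood. Lcn2 encodes lipocalin 2 (NGAL), a secreted carrier of iron-binding siderophores, and Havcr1 encodes KIM-1, a receptor by which proximal tubule cells take up dying cells. Spp1 (osteopontin) and Clu (clusterin) are secreted as well, Krt8 and Krt18 form the keratin filament of simple epithelia, Vcam1 is an adhesion molecule for leukocytes that stays on proximal tubule cells after incomplete repair, Sox9 is a transcription factor of regenerating tubules, Cdkn1a (p21) stops the cell cycle, and Tgm2 is a transglutaminase that cross-links matrix proteins. Several of them are also made by uninjured cells of the kidney: Spp1 by limbs of the loop of Henle, the keratins by the collecting duct and urothelium, Tgm2 and Vcam1 by endothelium, and Lcn2 by neutrophils.

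The markers did not move together. Lcn2 and Krt8 were higher in KI/+ kidneys, Spp1 and Tgm2 were lower, and Vcam1, Clu, Krt18, Sox9 and Cdkn1a did not pass the test. Havcr1 was too low to be tested with the other genes. The values are normalized counts, which are reads per gene divided by a size factor of the library, and the test was limma on log2(normalized count + 1) in the 13197 genes with at least 10 normalized counts in at least 5 mice, with an adjusted p of 0.05 as threshold. Of the 10 genes, 9 passed the filter and 4 of these were differentially expressed, against 3.69% of all genes tested (1.67% higher and 2.02% lower). The genotypes did not overlap in 2 genes that were higher and 1 that was lower, against 5.0% of all genes tested (2.29% higher and 2.71% lower). Lcn2 is in both counts and entered the test through the KI/+ mice. The markers were also chosen with earlier results of these data known, so both counts are descriptions. The median log2 fold change was 0.0686 over the 9 markers and 0.00046 over all genes. Because 1 is added to each normalized count before the log, fold changes of genes with few counts are understated.

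Libraries held 6501552 to 7996087 reads on genes, and size factors were between 0.882 and 1.12, so that 1 normalized count is close to 1 read. Reads came from the 3′ end of transcripts, and values are compared between mice, not between genes. Whole kidney was sequenced, so fewer cells of a type and less RNA per cell cannot be told apart. One library stands apart. KI/+ replicate 5 held the highest value of all 10 mice in 6 of the 10 markers, and log2 fold changes of the tested markers are given with and without it. The library codes form a pair of runs, ending in 38 to 40 (2 +/+ and 1 KI/+ mice) and in 53 to 66 (3 +/+ and 4 KI/+ mice).

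**Figure D1:**
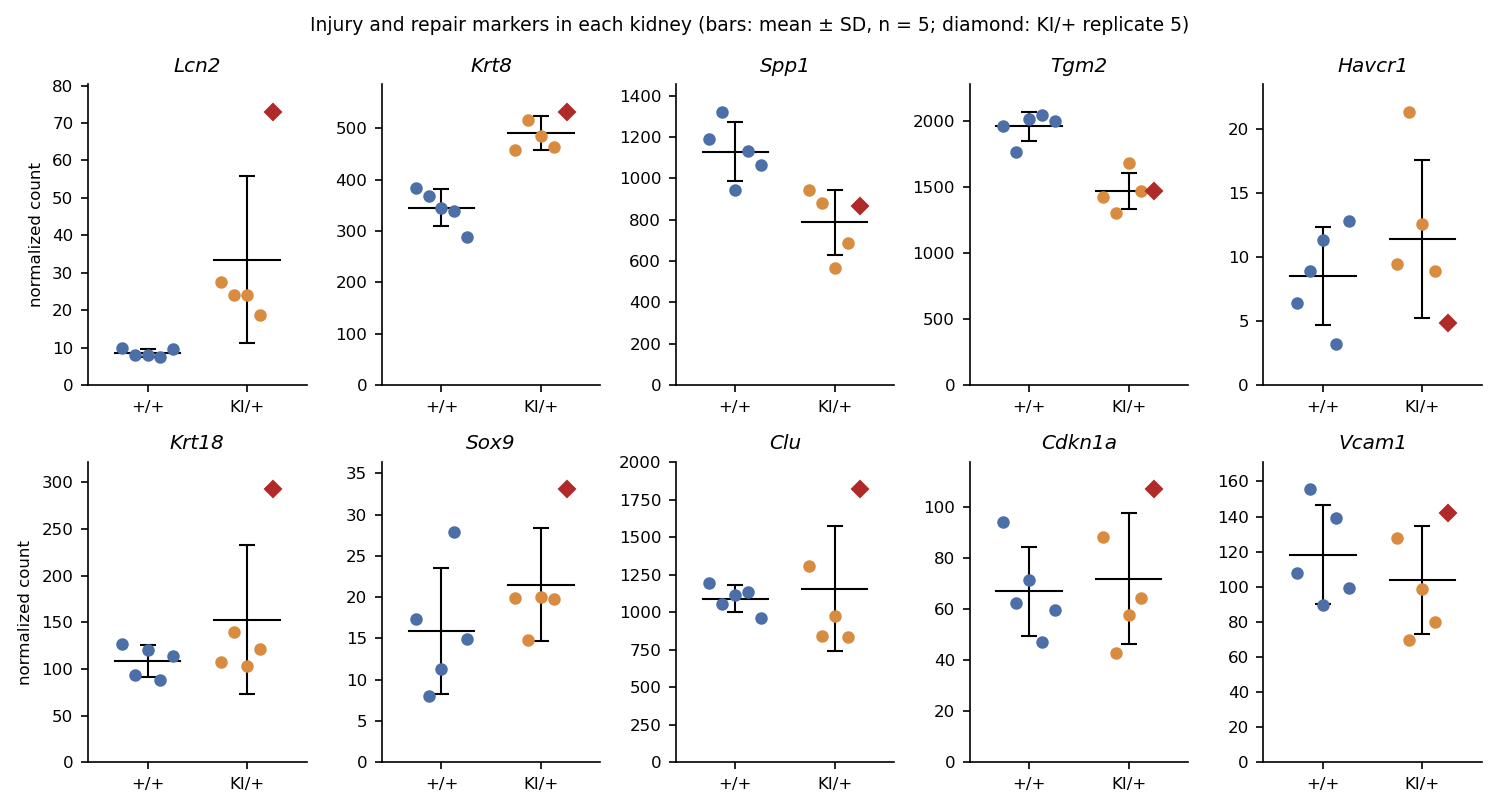
Normalized counts (y axes, each starting at 0) of the 10 markers in each of 5 +/+ and 5 KI/+ kidneys. Points are mice, lines and bars are means ± SD, and the diamond is KI/+ replicate 5. Lcn2 and Krt8 lay above, and Tgm2 below, all +/+ mice in every KI/+ mouse, while the other markers overlapped.

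Sequences around the transcription start are given for the markers that passed and had a promoter entry in RefSeq on GRCm38.p6 (Lcn2, Krt8 and Spp1), and for Krt18, whose product pairs with that of Krt8. Each runs 5′ to 3′ from 250 bases before to 30 bases after the annotated start, on the strand of the gene. Capitals mark the letters ATAAA on either strand, the core of TATA-like elements, and overlapping matches are joined.
Lcn2, chr2:32387710-32387989, - strand: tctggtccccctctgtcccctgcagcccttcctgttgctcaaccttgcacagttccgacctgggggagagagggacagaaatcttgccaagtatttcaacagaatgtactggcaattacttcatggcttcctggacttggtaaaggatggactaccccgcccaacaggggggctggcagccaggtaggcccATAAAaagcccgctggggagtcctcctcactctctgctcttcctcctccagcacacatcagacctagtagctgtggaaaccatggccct
Krt8, chr15:102004313-102004592, - strand: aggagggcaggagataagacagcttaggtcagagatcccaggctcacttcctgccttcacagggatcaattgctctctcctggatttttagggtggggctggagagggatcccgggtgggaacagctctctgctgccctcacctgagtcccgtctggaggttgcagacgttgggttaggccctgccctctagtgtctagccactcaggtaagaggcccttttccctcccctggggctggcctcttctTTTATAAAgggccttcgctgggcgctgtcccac
Krt18, chr15:102027966-102028245, + strand: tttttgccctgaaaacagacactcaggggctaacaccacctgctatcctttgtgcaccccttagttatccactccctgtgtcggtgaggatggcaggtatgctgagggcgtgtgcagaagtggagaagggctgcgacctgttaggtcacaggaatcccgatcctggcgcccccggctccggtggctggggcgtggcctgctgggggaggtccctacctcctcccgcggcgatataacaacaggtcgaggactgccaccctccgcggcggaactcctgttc
Spp1, chr5:104434861-104435140, + strand: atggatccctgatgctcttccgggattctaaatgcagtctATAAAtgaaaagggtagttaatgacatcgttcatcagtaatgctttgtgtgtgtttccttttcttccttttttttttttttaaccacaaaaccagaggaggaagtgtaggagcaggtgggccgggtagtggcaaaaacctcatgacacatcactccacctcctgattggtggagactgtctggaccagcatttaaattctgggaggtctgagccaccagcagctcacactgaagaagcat
In Lcn2 the match began at position -59 from the annotated start, in Spp1 at -210, and in Krt8 the pair of overlapping matches began at -3 and 1. ATAAA was held by 40% of the 32851 promoter windows of the table and by 6 of the 10 windows of the 6 markers that matched. The letters CACGTG, the E-box bound by factors of the TFEB family, were in 0 of these 10 windows and in 7.15% of all windows. TATAAA, which contains ATAAA, was in 2 of the 10 windows, those of Krt8 and Spp1, and in 13.6% of all. Both strands were searched, in 300 bases per window.

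Among the secreted markers, Lcn2 rose and Spp1 fell. Lcn2 had 10.04, 8.00, 7.94, 7.50 and 9.61 normalized counts in +/+ replicates 1 to 5, which stand for 7 to 11 reads. In KI/+ replicates 1 to 5 it had 27.5, 24.2, 24.2, 18.8 and 73.0 normalized counts, or 19 to 75 reads. Every KI/+ kidney was above every +/+ kidney, and replicate 5 stood above the other KI/+ mice. The mean was 8.62 ± 1.13 (SD, n = 5) in +/+ and 33.5 ± 22.3 (SD, n = 5) in KI/+ kidneys, a change of 1.67 on the log2 scale (standard error 0.32, limma adjusted p = 0.00406). Without KI/+ replicate 5 the mean of KI/+ kidneys was 23.7 ± 3.61 (SD, n = 4), and the log2 fold change was 1.35 (limma adjusted p = 0.00635). Within the run of codes 53 to 66 Lcn2 also passed (limma adjusted p = 0.0437). Only 1 of the 5 +/+ mice reached the filter of 10 normalized counts, so Lcn2 entered the test through the KI/+ mice. In a two-sided exact permutation test of this gene alone, p was 0.00794, the smallest that 5 mice against 5 allow.

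Spp1 was lower in KI/+ kidneys. Its normalized counts were 1189, 1322, 941.2, 1131 and 1064 in +/+ replicates 1 to 5, and 941.9, 883, 566, 685 and 868 in KI/+ replicates 1 to 5. All 5 KI/+ mice were below the +/+ mean and 4 were below every +/+ mouse, while KI/+ replicate 1 was level with +/+ replicate 3. The mean was 1130 ± 142 (SD, n = 5) in +/+ and 789 ± 157 (SD, n = 5) in KI/+ kidneys, a change of -0.53 on the log2 scale (standard error 0.13, limma adjusted p = 0.0245, exact permutation p = 0.0159). This call was the least firm of the 4. It was lost when +/+ replicate 1, 2, 4 or 5 or KI/+ replicate 4 was left out, with limma adjusted p values up to 0.0684, and within the run of codes 53 to 66 (log2 fold change -0.50, limma adjusted p = 0.0892). Without KI/+ replicate 5 it was -0.57 (limma adjusted p = 0.0197).

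Clu, an extracellular chaperone, did not pass. It ranged from 961 to 1198 normalized counts in +/+ kidneys (median 1116), and from 838 to 1823 in KI/+ kidneys (median 975). The highest value, 1823, was that of KI/+ replicate 5, and KI/+ replicate 1, at 1312, was also above the +/+ range, while KI/+ replicates 2 and 4 were below it. The log2 fold change was 0.02 (95% interval -0.32 to 0.37, limma adjusted p = 0.972) and -0.16 without KI/+ replicate 5 (limma adjusted p = 0.603). The coefficient of variation was 8.23% in +/+ and 36.1% in KI/+ kidneys.

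Of the surface markers, neither differed between genotypes beyond the spread between mice. Havcr1 had 6.39, 8.89, 11.3, 3.22 and 12.8 normalized counts in +/+ replicates 1 to 5, and 9.49, 21.4, 12.6, 8.90 and 4.87 in KI/+ replicates 1 to 5. These stand for 3 to 23 reads, and 4 of the 10 mice reached 10 normalized counts. The highest value was in KI/+ replicate 2, and KI/+ replicate 5, which was highest for Lcn2, had less Havcr1 than any other KI/+ mouse. The means were 8.53 ± 3.85 (SD, n = 5) and 11.4 ± 6.19 (SD, n = 5), a difference in mean log2 value of 0.36 (two-sided exact permutation test, p = 0.421), so that no difference was detectable at this depth.

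Vcam1 had 108, 156, 89.6, 139 and 99.3 normalized counts in +/+ replicates 1 to 5, and 128, 69.7, 98.8, 80.1 and 142 in KI/+ replicates 1 to 5. The genotypes overlapped, with the highest value in a +/+ and the lowest in a KI/+ mouse. The log2 fold change was -0.21 (95% interval -0.62 to 0.20, limma adjusted p = 0.689), which as a fold lies between 0.651 and 1.15. Without KI/+ replicate 5 the log2 fold change was -0.33 (limma adjusted p = 0.463).

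Of the keratin pair, Krt8 rose in every KI/+ mouse and Krt18 did not pass. Krt8 had 384, 369, 345, 339 and 289 normalized counts in +/+ replicates 1 to 5, and 457, 517, 484, 464 and 532 in KI/+ replicates 1 to 5. The genotypes did not overlap, and the KI/+ mice were close to each other, with a coefficient of variation of 6.68%. The mean was 345 ± 36.3 (SD, n = 5) in +/+ and 491 ± 32.8 (SD, n = 5) in KI/+ kidneys, a change of 0.51 on the log2 scale (standard error 0.09, limma adjusted p = 0.00341, exact permutation p = 0.00794). Without KI/+ replicate 5 it was 0.48 (limma adjusted p = 0.00806). The annotation also holds Krt8-ps, a processed pseudogene of Krt8, and reads that fit both copies could be lost or split, so the level of Krt8 is uncertain.

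Krt18 had 127, 93.4, 120, 87.9 and 114 normalized counts in +/+ replicates 1 to 5, and 108, 139, 103, 122 and 293 in KI/+ replicates 1 to 5. Only KI/+ replicates 2 and 5 were above the +/+ range, and replicate 5 stood far above all other mice. The log2 fold change was 0.39 (95% interval -0.08 to 0.85, limma adjusted p = 0.445) and fell to 0.12 without KI/+ replicate 5 (limma adjusted p = 0.780). The ratio of Krt8 to Krt18 normalized counts, chosen after the values were seen, was 2.53 to 3.95 in +/+ mice and 3.71 to 4.70 in KI/+ replicates 1 to 4, and 1.82 in KI/+ replicate 5. Its mean was 3.25 ± 0.626 (SD, n = 5) in +/+ and 3.65 ± 1.099 (SD, n = 5) in KI/+ kidneys, which overlapped (two-sided exact permutation test on the log2 ratio, p = 0.698).

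Tgm2 was lower in every KI/+ mouse. It had 1960, 1770, 2016, 2050 and 2003 normalized counts in +/+ replicates 1 to 5, and 1422, 1307, 1685, 1472 and 1469 in KI/+ replicates 1 to 5. The genotypes did not overlap, although KI/+ replicate 3 came close to +/+ replicate 2. The mean was 1960 ± 111 (SD, n = 5) in +/+ and 1471 ± 137 (SD, n = 5) in KI/+ kidneys, a change of -0.42 on the log2 scale (standard error 0.08, limma adjusted p = 0.00528, exact permutation p = 0.00794). Leaving out KI/+ replicate 5 left it at -0.42 (limma adjusted p = 0.00865).

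The nuclear markers did not pass. Sox9 had 17.3, 8.00, 11.3, 27.9 and 14.9 normalized counts in +/+ replicates 1 to 5, and 19.9, 14.9, 19.97, 19.8 and 33.1 in KI/+ replicates 1 to 5, with a change of 0.48 on the log2 scale (95% interval -0.17 to 1.13, limma adjusted p = 0.518). The value was above the +/+ mean in 4 of 5 KI/+ mice, and the interval reaches from 0.889-fold to 2.18-fold at these low counts of 9 to 34 reads. Without KI/+ replicate 5 the log2 fold change of Sox9 was 0.32 (limma adjusted p = 0.733). Cdkn1a had 94.0, 62.3, 71.4, 47.2 and 59.8 normalized counts in +/+ replicates 1 to 5, and 88.2, 42.7, 57.8, 64.2 and 107 in KI/+ replicates 1 to 5. Its highest and its lowest value were both in KI/+ mice. The log2 fold change of Cdkn1a was 0.07 (95% interval -0.41 to 0.54, limma adjusted p = 0.929) and changed sign, to -0.09, without KI/+ replicate 5 (limma adjusted p = 0.901).

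**Figure D2:**
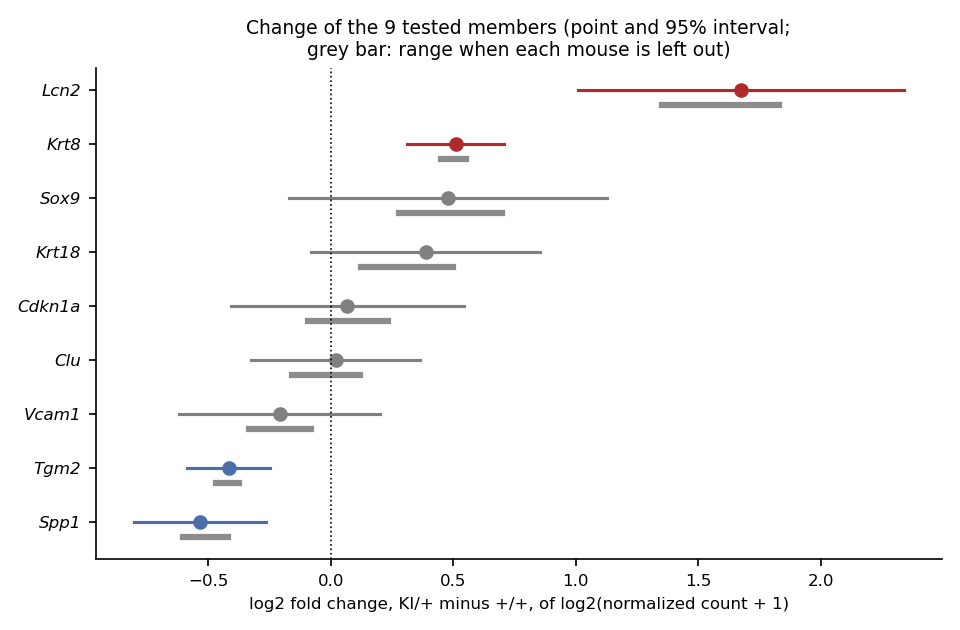
Log2 fold change (x axis, KI/+ minus +/+, on the log2(normalized count + 1) scale) of the 9 tested markers, with 95% intervals from limma. Grey bars are ranges over 10 fits that each left out 1 mouse. Red markers passed as higher (Lcn2 1.67, Krt8 0.51) and blue ones as lower (Tgm2 -0.42, Spp1 -0.53), and the intervals of the grey ones include 0.

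Mouse by mouse, KI/+ kidneys shared the same pattern only in Lcn2, Krt8 and Tgm2. KI/+ replicate 3 was above all +/+ mice in Lcn2 and Krt8 and below them in Spp1 and Tgm2, and within the +/+ range in the other 6 markers. KI/+ replicate 4 was above the +/+ range in the same 2 markers and below it in 4 (Spp1, Vcam1, Clu and Tgm2). KI/+ replicate 1 was above it in Lcn2, Clu and Krt8 and below it in Tgm2.

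The other KI/+ mice left the +/+ range in more of the markers. KI/+ replicate 2 was above it in Lcn2, Havcr1, Krt8 and Krt18 and below it in 5 markers (Spp1, Vcam1, Clu, Cdkn1a and Tgm2), and it held the lowest value of all 10 mice in Vcam1, Cdkn1a and Tgm2. KI/+ replicate 5 was above it in 6 markers, Lcn2, Clu, Krt8, Krt18, Sox9 and Cdkn1a, in each of which it was the highest of all 10 mice, and below it in Spp1 and Tgm2. Over all genes tested, the share above the +/+ range in KI/+ replicates 1 to 5 was 22.7%, 20.1%, 21.3%, 17.1% and 22.2%. The share below it was 21.4%, 17.7%, 22.8%, 16.9% and 21.9%, so that KI/+ replicate 5 did not stand apart from the other KI/+ mice in these shares.

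**Figure D3:**
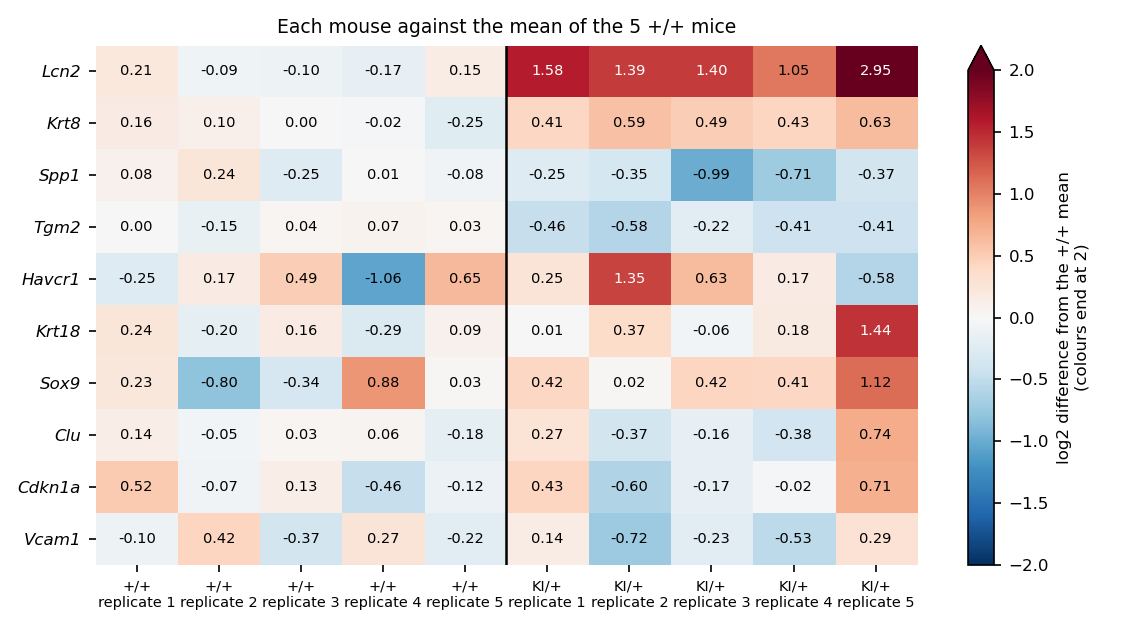
Log2 difference (colour and printed value, log2(normalized count + 1)) of each of the 10 mice (columns) from the mean of the 5 +/+ mice, for the 10 markers (rows). Lcn2 and Krt8 were above 0 and Spp1 and Tgm2 below 0 in all 5 KI/+ mice, and KI/+ replicate 5 reached 2.95 in Lcn2 and 1.44 in Krt18.

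Genes whose values followed those of Lcn2 from mouse to mouse were looked for as a description. Among 9136 tested genes whose mean reached 50 normalized counts, the deviations from the genotype mean over 10 mice were most like those of Lcn2 in Fabp5, Acly, Sox4, Capn15 and Gda (Pearson r from 0.941 to 0.967, Spearman rho from 0.806 to 0.976). They share the libraries, and all 5 were highest in KI/+ replicate 5. KI/+ replicates 4 and 5 were the mice whose Lcn2 deviations lay farthest from the median deviation. Without them r was 0.716 to 0.888 over 8 mice, which is no separate check because the genes were chosen for their r over all 10. None of the 5 passed between genotypes, with limma adjusted p from 0.0820 for Acly, an enzyme of fatty acid synthesis, to 0.976 for Capn15.

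Markers of other cells moved in some of the same mice. Of 12 neutrophil genes, 3 had values, and the defining genes Ly6g and Mpo were not analysed here. S100a8 was 25.4 ± 11.5 (SD, n = 5) in +/+ and 52.4 ± 62.2 (SD, n = 5) in KI/+ kidneys (limma adjusted p = 0.725), and S100a9 had an adjusted p of 0.989 in the same limma test. Their highest values, 161 and 129 normalized counts, were in KI/+ replicate 1. The summed neutrophil level was 63.5 to 128 normalized counts in +/+ mice, and 310, 63.2, 102, 69.2 and 62.3 in KI/+ replicates 1 to 5, in which Lcn2 was 27.5, 24.2, 24.2, 18.8 and 73.0. The mouse with the highest neutrophil sum had the second highest Lcn2. The mouse with the highest Lcn2 had the lowest sum, 62.3, which was close to 63.2 in KI/+ replicate 2 and 63.5 in +/+ replicate 3. These sums rest on 3 genes, S100a8, S100a9 and Cxcr2 (-0.18, limma adjusted p = 0.764). The part of neutrophils in the Lcn2 values was not tested.

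Beside Krt8, all 7 markers of principal cells of the collecting duct had positive log2 fold changes and 2 passed, Avpr2, the vasopressin receptor (0.88, limma adjusted p = 0.000756), and Hsd11b2 (0.43, limma adjusted p = 0.0478). The call of Hsd11b2 was lost in 6 of the 10 fits without 1 mouse and in 5 of 12 alternative settings, edgeR among them. In edgeR 1 of the 7 passed, Avpr2, and in DESeq2 5 did, Aqp2, Aqp3, Avpr2, Hsd11b2 and Scnn1g. Their summed level was 1876 to 2248 normalized counts in +/+ and 2400 to 3830 in KI/+ mice, highest in KI/+ replicate 5. In the same mouse the 6 urothelial genes with values, which include the uroplakins Upk1a and Upk3a, summed to 957, against 168 to 322 in +/+ and 176 to 343 in the other KI/+ mice. The fibroblast and pericyte genes summed to 2800 there, against 1308 to 1513 in +/+ and 1123 to 1475 in the other KI/+ mice. Without that mouse the rise of Krt8 was 0.48 on the log2 scale. The principal cell sums of the other KI/+ mice, 2400 to 2824, were still above those of all +/+ mice. The part of principal cells, urothelium, fibroblasts and pericytes in the values of Krt8, Krt18, Clu and Sox9 was not tested.

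Beside Spp1, 3 of 6 markers of the thick ascending limb were lower, Umod, the gene of uromodulin (-0.999, limma adjusted p = 0.000198), Egf (-1.04, limma adjusted p = 0.00207) and Kcnj1 (-0.80, limma adjusted p = 0.0156), and 1 was higher, Cldn16 (0.82, limma adjusted p = 0.0028). The call of Kcnj1 was lost in limma without a trend (adjusted p = 0.0904) and within the run of codes 53 to 66 (adjusted p = 0.0629). Slc12a1 (-0.22, limma adjusted p = 0.438) and Cldn10 (-0.28, limma adjusted p = 0.126) did not pass. The summed level of the 6 markers was 31479 to 41035 normalized counts in +/+ and 14036 to 23568 in KI/+ mice. Most of this sum was Umod, with a mean of 22917 normalized counts in +/+ and 11569 in KI/+ mice. The lowest sum was in KI/+ replicate 5 and the lowest Spp1 in KI/+ replicate 3. Beside Tgm2, 0 of 10 endothelial markers passed in limma (2 at an unadjusted p under 0.05) and in edgeR or DESeq2, 1 passed with the run of codes as a covariate (Kdr, -0.45, limma adjusted p = 0.0406), and 9 had negative log2 fold changes, the farthest from 0 at -0.39, and their sums were 3545 to 3795 in +/+ and 2827 to 3707 in KI/+ mice. KI/+ replicate 3 had the highest endothelial sum of the KI/+ mice, 3707, within the +/+ range. It also had the highest Tgm2 of the KI/+ mice, 1685 normalized counts, which was below all +/+ mice. The part of these cells in the values of Spp1 and Tgm2 was not tested.

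**Figure D4:**
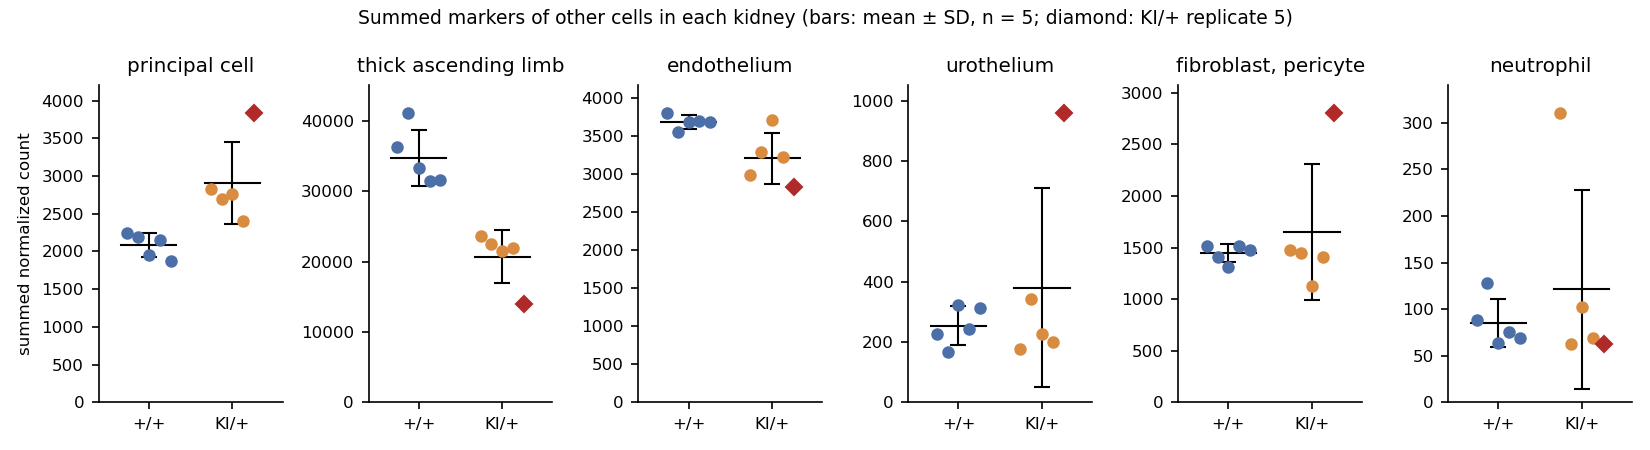
Summed normalized counts (y axes, each starting at 0) of marker genes of 6 cell types in each of 5 +/+ and 5 KI/+ kidneys. Points are mice, lines and bars are means ± SD, and the diamond is KI/+ replicate 5. That mouse held the highest principal cell, urothelial and fibroblast sums and the lowest thick ascending limb, endothelial and neutrophil sums. Its neutrophil sum, 62.3, was close to that of KI/+ replicate 2, 63.2. Most of the thick ascending limb sum was Umod.

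The wider program of tubule injury was read from lists of related genes. Over 9 lists, 133 distinct genes were tested and 12 passed, 7 higher and 5 lower, or 9.02% against 3.69% of all genes. Of these 12, 7 were in the list of healthy proximal tubule, whose genes fall on injury, and 4 of those 7 were higher. The lists were chosen with earlier results of these data known, so this share is a description. Without KI/+ replicate 5 the lists held 11 calls. Of 22 tested genes that also rise in acutely injured tubules, 0 passed in limma (6 at an unadjusted p under 0.05), 0 in edgeR and 1, Plin2, in DESeq2. With the run of library codes as a covariate 3 passed in limma, Anxa2, Gdf15 and Plin2, all higher, and 2 passed without +/+ replicate 1. In the fit of all mice 18 had positive log2 fold changes, and the median was 0.19. Its most abundant genes were S100a11 (0.29, limma adjusted p = 0.395), Cd24a (-0.07, limma adjusted p = 0.790) and the chaperone Cryab (0.17, limma adjusted p = 0.476). The summed level of this list was 7255 to 8500 normalized counts in +/+ and 8170 to 11010 in KI/+ mice, highest in KI/+ replicate 5.

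Of 18 tested genes of failed repair, C3 was higher and Prom1 lower, with a median log2 fold change of -0.02. C3, the central complement protein, had 66.5 to 88.9 normalized counts in +/+ and 89.3 to 488 in KI/+ mice (1.18, limma adjusted p = 0.0418), highest in KI/+ replicate 5, and its call was lost in 7 of the 10 fits without 1 mouse. Without KI/+ replicate 5 it was 0.81 (limma adjusted p = 0.0305). Prom1, a surface marker of scattered tubule progenitors, fell from a mean of 820 ± 89.0 (SD, n = 5) in +/+ to 552 ± 136 (SD, n = 5) in KI/+ mice, a change of -0.60 on the log2 scale (limma adjusted p = 0.0142). The calls of Prom1 and C3 were both lost in limma without a trend (adjusted p = 0.0892 and 0.153) and within the run of codes 53 to 66 (adjusted p = 0.0722 and 0.168). That of C3 was also lost in limma with robust variances (adjusted p = 0.200). Sema5a, Cxcl16 and Tnfaip2 did not pass, with log2 fold changes of -0.05, -0.30 and -0.20.

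In the acute phase list, which holds genes that respond to NF-kB or STAT3 as Lcn2 does, 2 of 13 tested genes were higher, C3 and Pigr, and the median was 0.41. Pigr, the receptor that carries polymeric immunoglobulins across epithelia, had 595 to 782 normalized counts in +/+ and 963 to 1643 in KI/+ mice, without overlap (0.94, limma adjusted p = 0.000311). Unlike Lcn2, it was lowest among KI/+ mice in replicate 5. Nfkbia, Stat3 and Cebpb did not pass, with log2 fold changes of 0.04, -0.00053 and 0.29.

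Around Cdkn1a, 1 of 20 tested genes of p53 targets and arrest was higher, the nuclease gene Aen (0.46, limma adjusted p = 0.0497), and its call was lost in 8 of the 10 fits without 1 mouse, KI/+ replicate 5 included, and in 4 of 12 alternative settings. Ccng1, Glb1 and Gadd45g did not pass, with log2 fold changes of 0.27, 0.08 and -0.62. Among 10 tested genes of cycling cells, Ccnd1 (cyclin D1) fell from a mean of 945 ± 168 (SD, n = 5) in +/+ to 282 ± 31.9 (SD, n = 5) in KI/+ mice, a change of -1.73 on the log2 scale (limma adjusted p = 5.14e-08). The others of that list did not pass, with Pcna at 0.12, Tyms at 0.31 and Mcm6 at -0.18.

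Around the keratins, 0 of 11 tested keratins and filament partners passed in limma and 9 were positive, with Krt7 at 0.18, Plec at 0.33 and Vim at 0.24. Of 16 tested binding partners and receptors of the markers, 0 passed in limma, with the megalin gene Lrp2 at -0.09, Adgrg1 at 0.22 and Itgav at 0.0064. Immediate early stress genes also gave 0 calls in 8 tested, with Ier3 at 0.57, Jun at 0.09 and Klf6 at -0.24. At an unadjusted p under 0.05, limma held 3 of the keratin list, 3 of the partners and 2 of the immediate early genes, and 0 of each passed in edgeR or DESeq2. With the run of library codes as a covariate, 2 of the partners passed in limma, Adgrg1 (0.26, limma adjusted p = 0.0336) and Slc22a17 (-0.45, limma adjusted p = 0.0295).

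Genes of healthy proximal tubule, which fall when this segment is injured, moved in both directions. All 22 were tested, 4 were higher and 3 lower, and the median log2 fold change was 0.10. Whether passed or not, 18 had positive and 4 had negative log2 fold changes. The organic anion transporter Slc22a6 (0.52, limma adjusted p = 0.00105), the dicarboxylate transporter Slc13a3 (0.55, limma adjusted p = 0.0017), Cyp2e1 (0.55, limma adjusted p = 0.00376) and the gluconeogenic enzyme Pck1 (1.3, limma adjusted p = 0.00412) were higher. The sodium-glucose cotransporter Slc5a2 (-0.93, limma adjusted p = 4.64e-05), Slc5a12 (-0.95, limma adjusted p = 0.00177) and Gatm (-0.74, limma adjusted p = 0.0173), which makes the precursor of creatine, were lower. The call of Gatm was lost without KI/+ replicate 4, those of Gatm and Pck1 were lost in limma without a trend (adjusted p = 0.109 and 0.0556) and with robust variances (adjusted p = 0.0683 and 0.0912), and the genotypes overlapped in Pck1 and Gatm. Among the abundant genes of the list that did not pass were Kap at 0.23 and Acsm2 at 0.04.

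**Figure D5:**
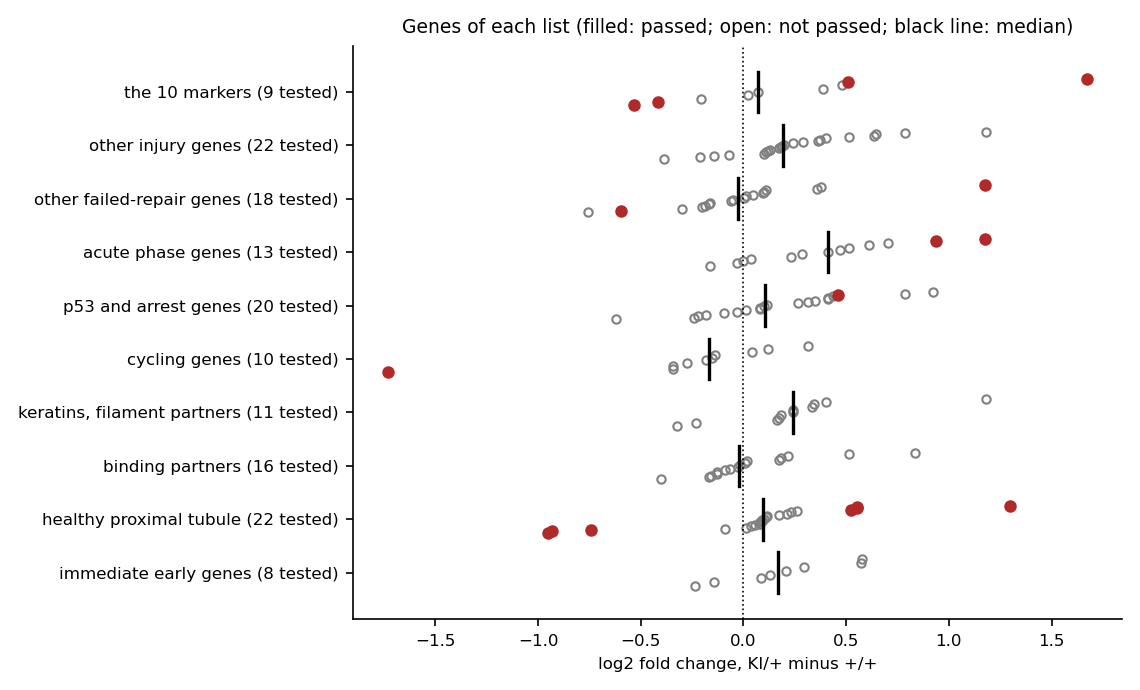
Log2 fold change (x axis, KI/+ minus +/+) of each tested gene of the 10 markers and of 9 related lists (rows, number tested in brackets). Filled points passed the test, open points did not, and black lines are medians. Medians lay between -0.17 for cycling genes and 0.41 for acute phase genes, and the filled points fell on both sides of 0.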

How the data were processed

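Total RNA of whole kidney was made into 3′ libraries primed with oligo(dT) (QuantSeq) and sequenced, with 1 library per mouse. The submitters' processing notes name FastQC 0.11.7, TopHat2 2.0.10, Bowtie 1.0.0, SAMtools 0.1.19, HTSeq 0.6.1, DESeq2 and the build GRCm39. Up to 20 hits per read were allowed. The deposited values are a signal, namely normalized counts, in which the authors divided reads per gene by size factors. Every value was within 0.01 of a whole read once multiplied by its size factor. The lowest gene mean in the table was 5.64, so genes below that are not analysed here. All 10 columns matched a mouse, and replicates are numbered in accession order.

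Because the values were not raw counts, limma 3.58.1 (R 4.3.3) with a trend was fitted to log2(normalized count + 1) over all 13197 genes with at least 10 normalized counts in 5 mice or more, and p-values were adjusted by Benjamini-Hochberg over those genes. edgeR 4.0.16 and DESeq2 1.42.0 on the recovered reads, other pseudocounts, filters, scalings and variance settings, the runs of library codes and each mouse left out were alternatives. The test was tried on simulated data. Single genes were also compared with exact permutation tests. In each related list, the genes that passed and the 3 most abundant that did not are named, except 1 gene that is not reported here. For likeness to Lcn2, the 5 genes with the highest Pearson r were taken. The 10 markers, the related lists and the tests were chosen with earlier results of these data known. The test of the library codes treats them as written and says nothing of how they arose. Promoters came from RefSeq (GRCm38.p6), which listed 6 of the 10 markers. Its coordinates belong to another build than the alignment and were used for sequence alone. Size factors were between 0.882 and 1.12. Lcn2 rested on 7 to 11 reads in +/+ mice, which limits the precision of its level there. Its coefficient of variation was 13.1% in +/+ and 66.5% in KI/+ mice.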

Additional observations from a re-analysis of the deposited data

Results flagged for a closer look

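On the log2(normalized count + 1) scale, the highest and the lowest of the 5 values of every marker in each genotype were compared with the other 4, by the gap to the nearest value as a share of the whole range. Of 20 such groups, 2 held a mouse past the limit of 0.71, and chance alone flags about 1 in 20. Both were KI/+ replicate 5. For Lcn2 the share was 0.723 on that scale, with 73.0 normalized counts in this mouse and 18.8 to 27.5 in the other KI/+ mice. For Krt18 it was 0.711, just past the limit, with 293 normalized counts against 103 to 139. On the normalized counts themselves 3 of the 20 groups were past the limit, all through KI/+ replicate 5, with shares of 0.839 for Lcn2, 0.808 for Krt18 and 0.72 for Sox9.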

How the results depend on the processing

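Under 12 alternatives and 10 fits that each left out 1 mouse, Krt8 and Tgm2 kept direction and call in all, and Lcn2 in all but a filter on a mean of 50 normalized counts, which leaves it untested. With mice left out, the log2 fold change was 1.35 to 1.83 for Lcn2, 0.45 to 0.55 for Krt8 and -0.47 to -0.38 for Tgm2. Spp1 was -0.53 in limma without a trend (adjusted p = 0.123), -0.50 among library codes ending in 53 to 66 (adjusted p = 0.0892) and -0.60 to -0.42 with mice left out, and missed the threshold in those 2 settings and in 5 of the 10 fits. Clu changed sign with quantile normalization (-0.031) and among codes ending in 53 to 66 (-0.012), and ranged from -0.16 to 0.12 with mice left out. Cdkn1a ranged from -0.091 to 0.24 there. The cause was not tested. Of all genes, 487 passed, against 291 in limma without a trend, 832 with the run of codes as covariate, and 295 to 466 with mice left out, where fewer samples were fitted. The lowest, 295 and 310, came without +/+ replicate 5 and 4. The 12 calls of the related lists became 7 in limma without a trend and 18 with the run of codes as covariate. No paired analysis was possible because replicate numbers were given in accession order and the labels carry none. Depth limits Havcr1, Lcn2 and Sox9, which rest on 3 to 75 reads per mouse.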

Other observations

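Other tubule segments, whose markers were not set beside a single injury gene above, also differed. Of 5 markers of the distal convoluted tubule, 3 were lower, Slc12a3, the thiazide-sensitive cotransporter (log2 fold change -1.20, limma adjusted p = 2.61e-07), Pvalb (-3.06, limma adjusted p = 5.08e-09) and Trpm6 (-1.84, limma adjusted p = 1.74e-05). Of 6 markers of intercalated cells, Atp6v0d2 (-0.45), Slc4a1 (-0.59) and Aqp6 (-0.71) were lower. The others did not pass: Slc26a4 was positive (0.25, limma adjusted p = 0.331), and Foxi1 (-0.10, limma adjusted p = 0.833) and Atp6v1g3 (-0.23, limma adjusted p = 0.251) were negative. The call of Atp6v0d2 was lost in 4 of the 10 fits without 1 mouse. Among macrophage genes 0 of 8 passed in limma (2 at an unadjusted p under 0.05), in edgeR or in DESeq2, and among thin limb genes 0 of 5 did (0 at an unadjusted p under 0.05). Igkc (1.297, limma adjusted p = 0.039), the podocyte gene Synpo (0.52, limma adjusted p = 0.0261) and Car3 (1.41, limma adjusted p = 5.70e-07) were higher. Of these, the call of Igkc was lost in 6 of the 10 fits without 1 mouse and in 5 of 12 alternative settings, DESeq2 among them. The call of Synpo was lost in 5 of the 10 fits, with limma adjusted p = 0.062 without KI/+ replicate 5, and in 2 of 12 settings. Summed B and plasma cell genes were 451 to 1346 normalized counts in +/+ and 1108 to 5424 in KI/+ mice, highest in KI/+ replicate 5.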
